A study of Mus musculus with 2 samples.

Results

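Endothelial cells line blood and lymphatic vessels. In the embryonic skin they form a plexus in the dermis, in which arteries, veins and capillaries carry different gene programmes, and lymphatic endothelium branches from veins under the transcription factor Prox1. Vessel growth is driven by vascular endothelial growth factors acting through the receptors Kdr (VEGFR2) and Flt4 (VEGFR3), and arterial identity depends on Notch signalling. The endothelial cells described here were taken from single-cell RNA libraries of mouse flank skin at embryonic day E13.5. A barcode, the tag of 1 droplet, counted as endothelial when it held at least 1000 detected genes, at most 10% mitochondrial UMIs (unique molecular identifiers, 1 per captured RNA molecule) and under 5% hemoglobin UMIs. It also needed at least 3 UMIs of Cdh5, Pecam1 and Kdr together with at least 1 of Cdh5. Barcodes with 10 or more UMIs of the macrophage genes C1qa, C1qb and C1qc, more than 5 of the keratins Krt5, Krt14 and Krt15, or any of Myod1 or Sox10 were left out. The cells were thus chosen by measured counts of marker genes. The rule found 284 cells among 25475 barcodes, 142 in each library.

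The 2 libraries came from littermates. The mutant carried Axin2CreER, a tamoxifen-inducible Cre recombinase expressed from Axin2, a gene switched on by Wnt signalling, and Rosa-lox-STOP-lox-SmoM2YFP, which once recombined makes SmoM2, an always-on form of the Hedgehog transducer Smoothened that carries a YFP tag. The control title names the SmoM2YFP allele alone, and the time of tamoxifen is not given in the sources used here. Skin of 2 to 3 embryos was pooled per group, so each group had 1 library and no difference below has a replicate check. In both libraries the title and the genotype entry name opposite genotypes, and the groups follow the titles; Ptch1, a direct Hedgehog target, stood at 255 CPM (UMIs of the gene per 1000000 UMIs of the cells summed) in dermal cells of the mutant-titled library and at 5.65 CPM in those of the control-titled one.

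Of the barcodes that passed the gene, mitochondrial and hemoglobin limits, endothelial cells made up 142 of 12028 in the control library, or 1.18% (exact Clopper-Pearson 95% interval 0.995 to 1.39), and 142 of 8480 in the mutant library, or 1.67% (1.41 to 1.97). Dissociation and the sort for living cells can set such shares. The control cells held 1283641 UMIs with a median of 8479.5 per cell, and the mutant cells 1171547 with a median of 6915. All intervals below cover counting error only. The libraries shared 48 barcodes, none of them endothelial in both. Xist, the RNA of the inactive X chromosome, had a UMI in 59.9% of control and 35.9% of mutant endothelial cells, against 47.2% and 49.4% of dermal cells. Its log2 ratio of mutant over control CPM was -0.86 in endothelial, -0.61 (-1.10 to -0.13) in mural and -0.51 (-0.66 to -0.37) in macrophage cells. In dermal and epidermal cells it was 0.14 and -0.02. The part of this in the results was not tested.

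The label of the cells was checked on genes that the rule did not use. Pan-endothelial genes were far higher in these cells than in all other kept barcodes: 19 of 19 were at least 5-fold higher in both libraries, the median being 99.1-fold in the control and 73.9-fold in the mutant library. Cldn5, a tight junction protein of endothelium, stood at 659 CPM in control and 592 CPM in mutant endothelial cells, against 0.963 and 2.18 CPM in the other barcodes. Tie1, an endothelial receptor kinase, stood at 125 and 99.9 CPM against 0.289 and 0.432 CPM. Robo4, a guidance receptor of vessels, stood at 77.9 and 74.3 CPM against 0.144 and 0.0998 CPM. Ecscr had a smaller gap, with 400 and 371 CPM against 30.6 and 19.6 CPM. The genes used by the rule are given as a description: Cdh5, the cadherin of endothelial junctions, stood at 472 and 502 CPM, Pecam1 at 342 and 315 CPM and Kdr at 430 and 429 CPM. All 22 genes of the list lay within 1.5-fold between the libraries. For Cdh5, Pecam1 and Kdr the rule itself partly sets this, so only the other 19 genes bear on it.

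**Figure D1:**
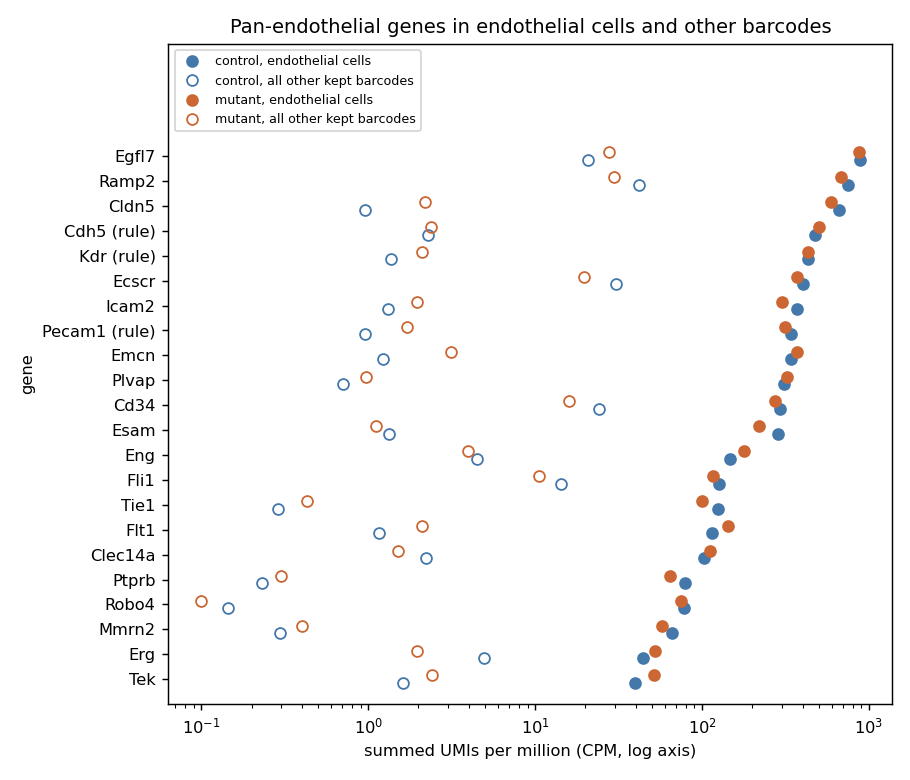
Level of each pan-endothelial gene in CPM (log axis) in endothelial cells (filled) and in all other kept barcodes (open), control in blue and mutant in orange. Each gene lies far to the right in endothelial cells, and the filled points of both libraries lie close together; the 3 genes marked as rule chose the cells.

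The motif AGGAAG, which holds the core bound by ETS transcription factors, a family with endothelial members such as Erg and Fli1, was searched on both strands in the 250 bases before each start given by RefSeq on GRCm38.p6. Entries matched 12 of the 22 genes, with 16 promoters, of which 9 (56.2%) held the motif; among all 32851 RefSeq promoters the share was 29.5%. Of promoters of lymphatic list genes 2 of 14 held it, of arterial genes 4 of 18 and of venous genes 4 of 6. A match is a description of letters, not of binding. The 2 shown were chosen after the matches were seen, for genes high in these cells, with each match in capitals. Egfl7, a secreted endothelial protein, has several of the 16 promoters, with 3, 1 and 0 matches. Its window shown here, with 3, lies at chr2:26580833-26581082 and that of Robo4 at chr9:37401722-37401971, both on the plus strand and printed 5′ to 3′.
Egfl7: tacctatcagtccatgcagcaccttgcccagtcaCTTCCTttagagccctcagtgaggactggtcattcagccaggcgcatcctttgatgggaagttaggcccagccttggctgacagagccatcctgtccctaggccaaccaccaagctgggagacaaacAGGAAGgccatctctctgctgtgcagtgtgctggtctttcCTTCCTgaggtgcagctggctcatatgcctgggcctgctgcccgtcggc
Robo4: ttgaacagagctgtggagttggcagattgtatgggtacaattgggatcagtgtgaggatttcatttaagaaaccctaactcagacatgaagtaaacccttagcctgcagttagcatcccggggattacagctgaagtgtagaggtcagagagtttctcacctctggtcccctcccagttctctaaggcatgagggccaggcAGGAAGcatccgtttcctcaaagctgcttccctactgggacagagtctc

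Cells near the limit of the rule differed from the rest. The 8 control and 11 mutant cells with exactly 3 marker UMIs held medians of 2 and 18 UMIs of the other pan-endothelial genes, against 50.5 and 37 in cells with 4 or more. Just outside, 26 control and 13 mutant barcodes with 2 marker UMIs held medians of 1.5 and 3. RNA of dermal fibroblasts and hemoglobin RNA were the main foreign signals. In control cells the dermal markers held 1829 UMIs and hemoglobin genes 187. In mutant cells the dermal markers held 803 UMIs and hemoglobin genes 1073, the latter spread over 141 cells. More than 10 UMIs of Col1a1, Col1a2 and Col3a1 were found in 21 control cells (14.8%, 9.39 to 21.7) and 12 mutant cells (8.45%, 4.44 to 14.3), and these held 1111 of 1160 and 426 of 482 collagen UMIs. Scrublet, a doublet caller, marked 8 endothelial cells in each library, of which 8 and 7 were among them. Of the mural cell genes, Rgs5 had no UMI in either library, and the summed list stood at 29.6 CPM in control and 86.2 CPM in mutant cells. The rule itself capped the C1q genes, so a low macrophage list is no check of the cells. The 11 macrophage genes held 76 UMIs in 48 control cells (59.2 CPM) and 55 UMIs in 28 mutant cells (46.9 CPM). Of them 8 were detected in control and 5 in mutant cells. Mrc1, which lymphatic endothelium shares, gave 36 of the control and 20 of the mutant UMIs in cells of the lymphatic range defined below. Outside C1q, Tyrobp had no UMI in control cells and Csf1r, Lyz2 and Aif1 had none in mutant cells. Each of these was detected in the other library.

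Prox1 (chromosome 1, 190118035 to 190170714, minus strand, protein-coding, GRCm38, GENCODE M21) marks lymphatic endothelium, which was described by a range of marker counts: at least 1 UMI of Prox1 with at least 1 of Lyve1, Reln, Mmrn1, Ccl21a or Pdpn. It held 30 of 142 control cells (21.1%, 14.7 to 28.8) and 34 of 142 mutant cells (23.9%, 17.2 to 31.8). After each cell was thinned to 3000 UMIs, leaving out 4 control and 5 mutant cells below that depth, the shares were 17.4% (11.5 to 24.8) and 16.1% (10.3 to 23.3). The intervals overlap in both readings. Of cells with Prox1, 9 of 31 control and 14 of 34 mutant cells held 1 Prox1 UMI, the lowest count the range takes. In a clustering of the endothelial cells alone, 1 cluster of 64 cells, 32 from each library, stood at 365 CPM of Prox1 and held 54 of the 64 cells of the range.

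Lymphatic-range cells were compared with the 111 control and 108 mutant cells with no Prox1 UMI. Some of the latter carried the other lymphatic genes of the range, such as a control cell with 40 UMIs and a mutant cell with 38. In the cluster high in Prox1, 54 of 64 cells held a Prox1 UMI. The Prox1-free cells may thus include lymphatic cells and are not blood endothelium alone. The range genes are no finding, so they were left out. Of 5507 genes that reached 20 CPM in 1 of the 2 classes in each library, 428 (7.77%) were at least 1.5-fold higher in lymphatic-range cells of both libraries and 467 (8.48%) at least 1.5-fold lower. The 8 measured lymphatic list genes outside the range rule were all higher in both, with both counting intervals above 1, against 3.20% of all genes higher and 4.21% lower by that reading. Flt4, the receptor of the lymphatic growth factor Vegfc, stood at 258 against 49.8 CPM in the control library and 286 against 44.3 CPM in the mutant library. Nrp2, a co-receptor of Flt4, stood at 1010 against 169 CPM and 801 against 175 CPM. Stab1, a scavenger receptor, was 6.47-fold and 6.01-fold higher, and the transcription factor Maf stood at 239 against 21.8 CPM and 119 against 16.6 CPM. None of the 8 was lower in either library.

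Nts, the precursor of the peptide neurotensin, came first among the 12 genes with the highest ratios in both libraries. It held 66 UMIs in 30 lymphatic-range cells against 1 in 111 Prox1-free cells of the control library, and 103 against 13 in the mutant library, where its ratio was 26.5 (14.8 to 51.5). Ptx3, a secreted pattern recognition protein, was 16.7-fold (9.73 to 30.5) and 16.4-fold (10.1 to 28.0) higher. Mrc1, the mannose receptor shared by lymphatic endothelium and macrophages, was 36.9-fold and 16.7-fold higher, in cells that the rule keeps low in C1q. Thy1, a surface glycoprotein, was 11.3-fold and 10.8-fold higher. The others among the 12 widest were Rassf9, Rtn1, Tc2n, Pcsk6, Cxadr, Scn3a, Sgk3 and Rnf141, and 12 of 12 had both intervals above 1. Their order depends on few UMIs: Tc2n held 14 against 1 in the control library and 18 against 0 in the mutant library, at least 20.1-fold.

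On the other side stood genes of blood vessels. Aplnr, the apelin receptor of veins and capillaries, held 0 UMIs against 155 in the control library, at least 16.8-fold lower, and 1 against 145 in the mutant library, with a ratio of 0.0231 (5.80e-04 to 0.131). Its ligand Apln was among the 12 lowest too. Esam, an endothelial adhesion molecule, held 0 against 366 and 5 against 250. Flt1, the decoy receptor of VEGF, held 0 against 146 and 3 against 164. Gja4, the gap junction protein of arteries, held 2 against 165 and 0 against 81. Kitl, the ligand of Kit, held 1 against 143 and 1 against 151, and Slc2a1, the glucose transporter of barrier vessels, 4 against 197 and 3 against 133. The others were Anxa3, Fam167b, Klk8, Cd93 and Prnd. Of the pan-endothelial list 11 of 22 were lower and Cldn5 alone was higher in both libraries: Cd34, Plvap, Emcn and Robo4 were low in lymphatic-range cells, while Egfl7 was 0.989-fold and 0.902-fold the Prox1-free level.

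**Figure D2:**
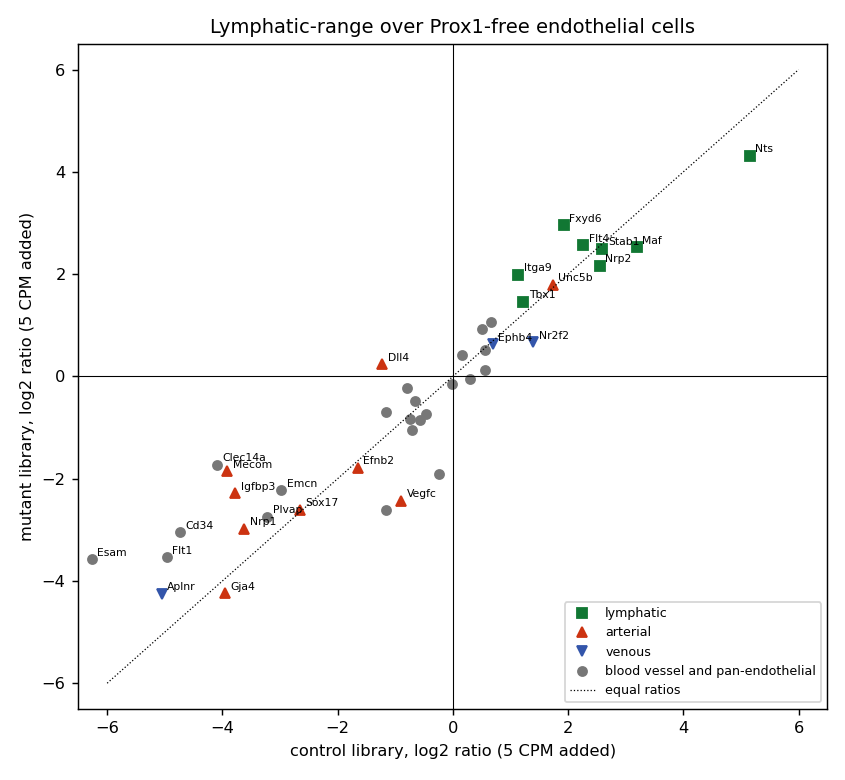
Log2 ratio of lymphatic-range over Prox1-free endothelial cells with 5 CPM added, control library on the horizontal and mutant library on the vertical axis, for measured members of 4 lists. Lymphatic genes lie at the upper right, most arterial genes and Aplnr at the lower left, and the points follow the dotted line of equal ratios.

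Arterial and venous genes split the Prox1-free cells. After thinning to 3000 UMIs, at least 2 of the arterial genes Gja4, Gja5, Hey1, Sox17, Efnb2 and Dll4 were found in 19 of 107 control cells (17.8%) and 18 of 104 mutant cells (17.3%, 10.6 to 26.0). At least 2 of the venous genes Nr2f2, Aplnr, Ephb4 and Nrp2 were found in 23.4% (15.7 to 32.5) and 26.0% (17.9 to 35.5). Both together were found in 2 of 107 control and 1 of 104 mutant cells, and 60.7% and 57.7% of cells met neither. In dermal cells 0.0411% and 0.0522% met the arterial and 2.84% and 5.96% the venous threshold, which is the background in dermal cells only. By the same reading, 15 of 30 control and 17 of 33 mutant lymphatic-range cells met the venous threshold. That threshold is thus not particular to veins. The arterial threshold was met by 1 of 30 and 1 of 33 of these cells.

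Cells that met only 1 definition were compared, 17 arterial-range with 23 venous-range cells in the control library and 17 with 26 in the mutant library. UMI pairs below therefore come from unequal totals, and the intervals do not cover the spread between so few cells. Ephb4, a gene of the venous definition, did not separate the ranges. Its arterial over venous ratio was 1.89 (0.626 to 5.97) in the control and 1.15 (0.345 to 3.51) in the mutant library. Nr2f2, Aplnr and Nrp2 were lower in arterial-range cells of both libraries. Of the genes outside the 2 definitions, some lay on the same side in both libraries and others did not. Vegfc, a ligand of Flt4, held 20 UMIs in arterial-range against 0 in venous-range cells of the control library and 29 against 1 in the mutant library. Jag1, a Notch ligand, held 12 against 0 and 12 against 1, and Unc5b, a netrin receptor, 15 against 1 and 14 against 1. The arterial transcription factor Mecom was 3.43-fold (1.69 to 7.40) and 6.63-fold (3.08 to 15.8) higher on the arterial side, and Igfbp3 3.17-fold and 2.27-fold. The class I antigen gene H2-D1 was 3.63-fold and 4.60-fold higher there. On the venous side stood the fatty acid carrier Fabp4, with 87 UMIs against 8 and 212 against 2, and the caveolar gene Cavin2, with 81 against 20 and 146 against 33. Klf2, a transcription factor induced by blood flow, was 8.32-fold (5.01 to 14.6) higher on the arterial side of the control library and 1.76-fold (1.07 to 2.91) in the mutant library; that difference was not tested. Fabp5, another fatty acid carrier, lay on opposite sides, with an arterial over venous ratio of 1.36 (1.06 to 1.73) in the control and 0.562 (0.425 to 0.735) in the mutant library. Slc2a1 had ratios of 0.915 (0.574 to 1.44) and 4.20 (2.49 to 7.30), Plvap 1.07 (0.757 to 1.52) and 0.581 (0.378 to 0.870), and the water channel Aqp1 5.51 (1.75 to 22.8) and 0.888 (0.277 to 2.50). Adm, the vasodilator adrenomedullin, held 7 UMIs against 1 and 1 against 7.

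The mutant and control endothelium were compared to ask how vessels stood in skin with Hedgehog signalling switched on. Of the 5817 genes that reached 20 CPM in 1 or both libraries, 297 (5.11%) were at least 1.5-fold higher and 338 (5.81%) at least 1.5-fold lower in the mutant cells. The median log2 ratio over all of them was 0.02. Intervals lay outside 1 for 166 higher genes (2.85%) and 177 lower genes (3.04%). Some of the names below are the widest by size, and size alone chose those. Others, such as Meox2, Gja4 and Gpihbp1, are members of the gene lists. The lists and their members were chosen with earlier results of these data known.

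Some of the widest differences were not particular to endothelium. AA465934, a non-coding RNA, held 84 UMIs in 61 mutant cells and 0 in the control cells, at least 30.7-fold higher; in dermal cells it held 1080 UMIs against 70. The splicing factor Cwc22 held 91 against 23 UMIs, and dermal, mural, macrophage and epidermal cells had ratios of the same direction. Hemoglobin genes were 4 of 4 higher, against 5.11% of all genes. Hbb-bs stood at 480 against 67.0 CPM, and in dermal cells at 539 against 69.6 CPM. Cpa3, a mast cell protease, held 60 UMIs that all lay in 2 mutant cells. Erythroid markers other than hemoglobin held 19 UMIs in mutant and 5 in control endothelial cells.

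Acta2 and Tagln, contractile proteins of mural and smooth muscle cells, were higher in mutant endothelium, with 39 against 9 and 47 against 9 UMIs, ratios of 4.75 (2.26 to 11.1) and 5.72 (2.77 to 13.3). The rise was not particular to endothelium. The log2 ratios of Acta2 and Tagln were 2.25 and 2.52 there, 1.74 and 2.51 in dermal cells and -0.39 and 0.10 in mural cells. In macrophages they were 0.76 and 1.34, and in epidermal cells 0.56 and 1.36. Under a stricter rule of at least 5 marker UMIs, no C1q or keratin UMI and at most 10 collagen UMIs, which kept 111 control and 102 mutant cells, their ratios were 1.41 (6 against 5 UMIs) and 1.34 (8 against 7 UMIs). Dkk1, an inhibitor of Wnt signalling, held 27 against 3 UMIs, a ratio of 9.86 (3.03 to 50.8), and 3 against 0 under the stricter rule. Its log2 ratio was 3.30 (1.60 to 5.67) in endothelium and 1.87 (1.79 to 1.95) in dermal cells. The dermal markers were lower, 6 of 8 measured against 5.81% of all genes, and so were Sfrp2, Abi3bp, Nrgn, Wnt5a and Nrk. Within dermal cells the log2 ratios were -0.52 for Sfrp2, -0.05 for Abi3bp, -3.29 for Nrgn, -0.13 for Wnt5a and 0.28 for Nrk. Col1a1 held 108 against 329 UMIs, a ratio of 0.360 (0.287 to 0.448), and the strict ratio was 1.29. Crabp1, a retinoic acid binding protein, held 54 against 220 and had a strict ratio of 1.03. Ptn, a secreted growth factor, held 245 against 913 and reversed to 2.93. The stricter rule left few UMIs of the others, 0 against 1 for Sfrp2 and Abi3bp, 2 against 4 for Nrgn, 1 against 5 for Wnt5a and 0 against 6 for Nrk. It sets several limits at once. With the collagen limit alone, at most 10 UMIs, the log2 ratios with 5 CPM added were 0.27 for Crabp1, 0.63 for Ptn and 0.09 for Col1a2.

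Other differences kept their direction under the stricter rule. Fabp4 stood at 340 CPM in mutant against 123 CPM in control endothelium, a ratio of 2.76 (2.29 to 3.34), and 4.10 under the stricter rule; 42 and 36 cells held it, and the top 2 cells held 80 of 398 and 61 of 158 UMIs. In Prox1-free cells the ratio was 2.59 (2.13 to 3.16) and in lymphatic-range cells 4.79 (2.27 to 11.3). Edn1, the vasoconstrictor endothelin, held 42 against 16 UMIs, a ratio of 2.88 (1.58 to 5.48) and 2.43 under the stricter rule. It was higher in mutant dermal cells too, with 31 against 18 UMIs. Its log2 ratio was 2.28 (1.40 to 3.21) there and 1.52 (0.66 to 2.45) in endothelium. Rnf125, a ubiquitin ligase, held 32 against 10. The homeobox gene Meox2 stood at 120 against 73.2 CPM, a ratio of 1.63 (1.25 to 2.14). Icam1, an adhesion molecule for leukocytes, held 56 against 28 UMIs, a ratio of 2.19 (1.37 to 3.58). It was not particular to endothelium either. Its log2 ratio was 1.13 in endothelium, 1.72 in dermal cells, 0.62 in macrophages and 0.55 in epidermal cells.

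Lower in mutant endothelium were Gja4 at 69.1 against 130 CPM, a ratio of 0.531 (0.402 to 0.697), and Gpihbp1, the capillary anchor of lipoprotein lipase, at 119 against 182 CPM, a ratio of 0.654 (0.526 to 0.810). Madcam1, an addressin, held 27 against 73 UMIs, all in Prox1-free cells, and Podxl, a sialomucin, 29 against 59. Bcl6b, an endothelial transcription factor, held 37 against 78. The TGF-beta receptors Tgfbr1 and Tgfbr2 had ratios of 0.459 (0.249 to 0.812) and 0.638 (0.482 to 0.839). Rspo3, a secreted Wnt agonist, held 6 against 36 UMIs, and the cytokine Ltb 6 against 33; in the stricter cells their ratios were 0.220 and 0.180. In the 19 control and 18 mutant cells without a G2M UMI the log2 ratios of Gja4, Podxl and Bcl6b were 1.79, 2.02 and 0.03, and that of Meox2 was -0.26.

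By list, the arterial genes had 1 higher and 1 lower member of 11 measured, the venous genes 0 of 5, and the pan-endothelial genes 0 of 22, against 5.11% and 5.81% of all genes. The 22 include Cdh5, Pecam1 and Kdr, whose levels the rule partly sets. Lymphatic genes had 1 higher and 3 lower of 14, with a median log2 ratio of -0.24, and their summed level was 1736 against 2332 CPM. Ccl21a, the chemokine that guides dendritic cells into lymphatics, carried much of that sum, with 1332 UMIs in control and 691 in mutant cells. Its near-identical gene copies may share reads, so that level is uncertain, and in the cells without a G2M UMI its log2 ratio was 0.21. Within the lymphatic range Ccl21a was 0.593-fold (0.538 to 0.654), Maf 0.497-fold (0.318 to 0.761), Reln 0.608-fold (0.392 to 0.929) and Nts 1.82-fold (1.32 to 2.51) its control level, while Lyve1 stood at 293 CPM in both libraries. Leukocyte adhesion genes had 1 higher and 3 lower of 9, and tip cell genes 0 of 12.

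**Figure D3:**
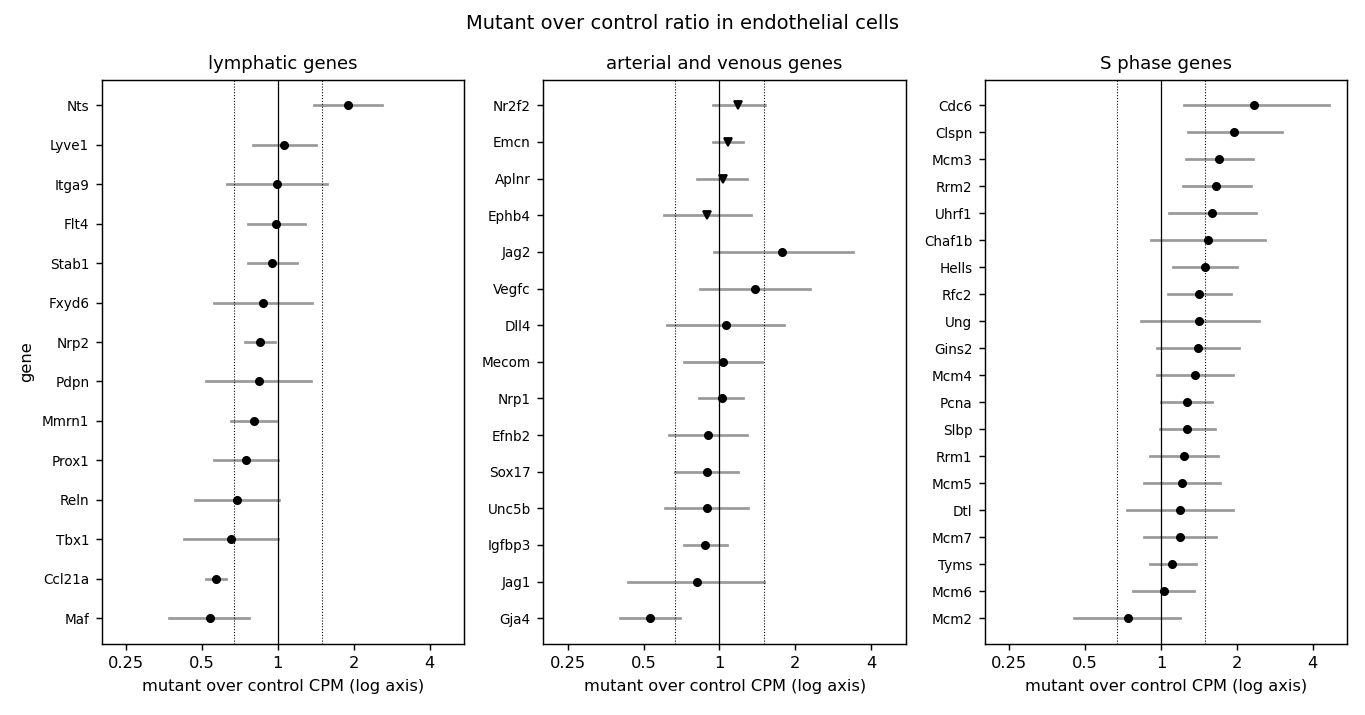
Mutant over control CPM (log axis) of each measured gene in endothelial cells for lymphatic, arterial (circles) with venous (triangles), and S phase lists; bars are 95% counting intervals, the solid line marks a ratio of 1 and the dotted lines 1.5-fold. Most vessel identity genes lie between the dotted lines, Gja4, Ccl21a and Maf to the left and Nts to the right, and S phase genes lie mostly to the right of 1.

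Of 20 measured S phase genes, which serve DNA replication, 7 were at least 1.5-fold higher, 6 of them with a counting interval above 1, 13 lay within 1.5-fold and 0 were lower, against 5.11% of all genes higher. Their median log2 ratio was 0.46 against 0.02 over all genes, and the range ran from -0.42 to 1.16. Cdc6, which loads the replicative helicase, held 32 against 15 UMIs, a ratio of 2.34 (1.23 to 4.65). Clspn, a checkpoint adaptor, had a ratio of 1.95 (1.28 to 3.02), the helicase subunit Mcm3 1.70 (1.26 to 2.32) and Rrm2, a ribonucleotide reductase subunit, 1.66 (1.22 to 2.27). In the cells without a G2M UMI the log2 ratio of Cdc6 was -1.36. Mitotic genes of the G2M list were within 1.5-fold in 20 of 22, and Aurka and Tacc3 were higher. At 3000 UMIs a cell, 55.1% (46.4 to 63.5) of control and 70.1% (61.7 to 77.6) of mutant endothelial cells held at least 2 G2M UMIs, and 67.4% and 80.3% at least 2 S phase UMIs. Before thinning the G2M shares were 72.5% and 78.2%. The G2M share was higher in mutant dermal cells too, 63.9% against 52.7%, and in macrophages, 81.0% against 67.3%. In epidermal cells it was 75.2% against 71.7%, and in the small mural set 85.7% against 87.0%.

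**Figure D4:**
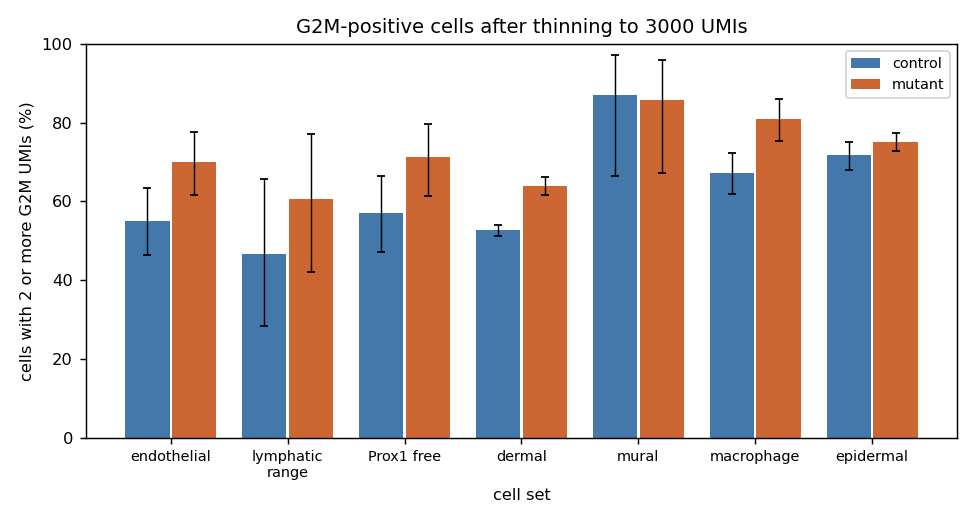
Percent of cells with at least 2 UMIs of G2M genes after thinning to 3000 UMIs, by cell set and library; bars are shares and whiskers exact 95% binomial intervals. The mutant bar stands above the control bar in all sets but the mural one, and the intervals of the libraries overlap in endothelial, mural and epidermal cells and do not in dermal cells and macrophages.

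Hedgehog targets were read in the endothelial cells because the mutant turns that pathway on. Ptch1, the receptor and target (chromosome 13, 63508328 to 63573598, minus strand, protein-coding), stood at 24.2 CPM (16.4 to 34.3) in control and 46.1 CPM (34.6 to 60.1) in mutant endothelium, a ratio of 1.91 (1.21 to 3.07). In dermal cells it was 5.65 and 255 CPM, so the endothelial ratio was 4.56 log2 units below the dermal one (3.85 to 5.25). In cells without any collagen UMI, Ptch1 stood at 32.9 CPM (21.3 to 48.6) in control and 35.7 CPM (23.1 to 52.7) in mutant. In the 12 mutant cells with more than 10 collagen UMIs it stood at 149 CPM. Gli1 held 1 UMI in control and 8 in mutant endothelial cells, Hhip, a Hedgehog inhibitor and target, 0 and 11, and the eYFP feature 1 and 5. In the collagen-free cells these 3 held 0 and 1, 0 and 0, and 1 and 0 UMIs. The mutant endothelial levels of Ptch1, Gli1, eYFP and Hhip were 18.1%, 17.3%, 15.3% and 5.66% (2.82 to 10.1 for Hhip) of the dermal levels, and Col1a1 stood at 9.42% (7.72 to 11.4). In control cells Ptch1 was higher in the lymphatic range, 47.8 CPM (26.7 to 78.8), than in Prox1-free cells, 16.6 CPM (9.48 to 26.9).

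**Figure D5:**
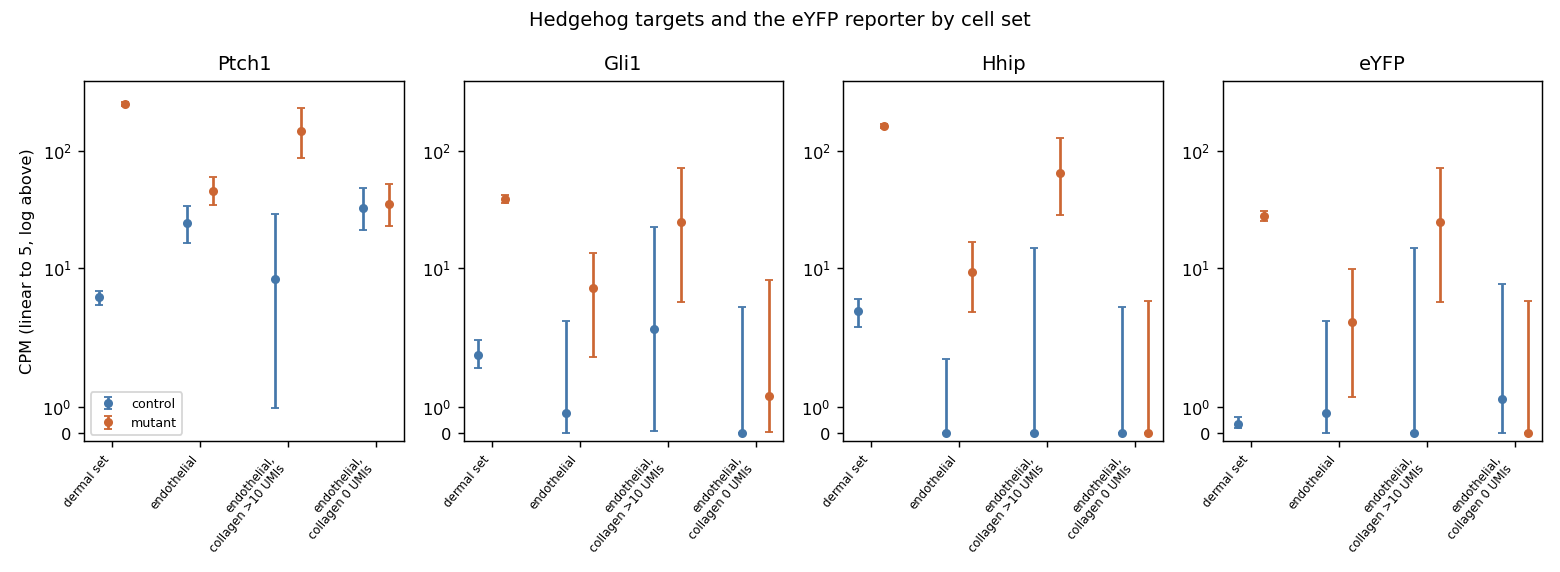
CPM (linear to 5, log above) of Ptch1, Gli1, Hhip and the eYFP reporter in dermal cells and in endothelial cells, all of them and split by collagen UMIs; whiskers are exact 95% Poisson intervals, control in blue and mutant in orange. Mutant levels are high in dermal cells and in collagen-rich endothelial cells, and in collagen-free endothelial cells both libraries have overlapping intervals.

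Among genes past 1.5-fold between the libraries in endothelium, the 6 with the widest gap to the dermal ratio were named each way. Below the dermal ratio were Ptch1, Igfbp7, Ptn, Rspo3, Ltb and Klf4. Ptn reversed under the stricter rule, to a ratio of 2.93 on 15 against 6 UMIs. Ltb held only 13 mutant and 30 control dermal UMIs. It was lower in mutant epidermal cells too, with a log2 ratio of -1.86 (-2.25 to -1.49). Igfbp7, a secreted binding protein, held 133 UMIs in mutant and 235 in control endothelial cells, a log2 ratio of -0.69 (-1.01 to -0.38), and 473 against 185 in dermal cells, a log2 ratio of 2.85 (2.60 to 3.11). Above the dermal ratio were Cpa3, Hoxa7, Tgfb2, Fabp4, Zfp467 and Cat. Fabp4 held only 2 mutant and 6 control dermal UMIs, and its gap of 1.55 log2 units had an interval of -0.95 to 4.90, which includes no gap. The endothelial log2 ratios of Tgfb2 (-0.01 to 1.46), Cat (-0.08 to 1.46) and Klf4 (-1.38 to 0.08) had intervals that include no difference between the libraries. Hoxa7, a homeobox gene of axial position, was 1.16 log2 units higher in mutant endothelium and lower in dermal cells, with a log2 ratio of -0.62; in the endothelial cells without a G2M UMI its log2 ratio was -0.61. The transcription factor Sox18, known for vessel development, was within 1.5-fold in endothelium, at 136 against 168 CPM, and stood at 27.5 against 0.712 CPM in dermal cells.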

How the data were processed

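The deposited matrices hold raw UMI counts per gene and barcode, per the file headers, for 1 library each of control and mutant skin. Reads were processed with Cell Ranger 5.0.1 against mm10, per the submitters' processing notes. The authors' feature and barcode lists gave gene names and cells (unit other). Cells were chosen by the count rule in the text, and comparison sets by marker counts with no UMI of Cdh5 or Kdr: dermal (collagens at least 10 with Pdgfra), mural (Rgs5, Kcnj8, Abcc9 and Notch3 at least 3 with Rgs5), macrophage (C1q at least 10) and epidermal (keratins above 5).

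UMIs were summed per set and library and scaled to 1000000 (CPM). Genes had at least 20 CPM in either library. Each group had 1 library, so no test was made and no p-value is given; ratios carry exact conditional binomial, CPM exact Poisson and shares exact Clopper-Pearson 95% intervals, and a limit against 0 counts uses 3 counts. UMIs of a cell are not independent, and embryos were pooled, so the spread between animals is not covered. Named genes were the 12 highest and 12 lowest by log2 ratio with 5 CPM added, 12 each way between lymphatic-range and Prox1-free cells, and 6 each way for differences from dermal cells among genes past 1.5-fold in endothelium; members of the 34 gene lists may also be named. The members and lists were chosen with earlier results of these data known. List medians add 1 CPM. Thinning drew 3000 UMIs per cell. Doublets were called with Scrublet in scanpy 1.11.5 and kept in the main results. Functions were tested on simulated data. Software was Python 3.11.15, numpy 2.4.6, scipy 1.17.1, pandas 2.3.3 and matplotlib 3.10.9.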

Additional observations from a re-analysis of the deposited data

Results flagged for a closer look

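Igfbp7, Hoxa7 and Zfp467 had opposite directions in endothelial and dermal cells, with counting intervals on opposite sides of 1; the difference was not tested, as each group had 1 library. The endothelial minus dermal log2 ratio was -3.54 for Igfbp7, 1.79 for Hoxa7 and 1.82 for Zfp467.

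Barcodes outside the rule also carried endothelial markers. In the mutant library 10 barcodes with at least 5% hemoglobin UMIs passed all other limits, with a median of 9 marker UMIs, against 3 in the control library. Barcodes with no Cdh5 UMI but at least 3 of Pecam1 and Kdr numbered 15 among mutant and 4 among control barcodes.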

How the results depend on the processing

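Many counts and shares moved with the processing, and some orders turned. The main counts were 297 higher and 338 lower genes, 46.8% of calls being higher. The stricter rule gave 497 higher and 375 lower (57.0% of calls higher), a minimum of 10 CPM 633 and 768, of 50 CPM 56 and 62, and of 100 CPM 11 and 23 (32.4% higher). Adding 5 CPM gave 205 lower, adding 10 CPM 121 and 131, thinning to 3000 UMIs 854 and 760, and a total without hemoglobin, mitochondrial and ribosomal genes 593 lower. The few cells with no G2M UMI gave 1808 and 1805. Lists past 1.5-fold numbered 3 higher and 1 lower. The higher ones were hemoglobin, the mural markers with 2 measured genes, and the platelet and mast markers with 1. The lower one was the dermal markers, so all were lists of other cell types. Without doublets 2 lists were lower, in cells with no G2M UMI 8 were higher and 4 lower, and at 100 CPM 1 was higher. Higher and lower genes of the lymphatic range numbered 176 and 241 at 50 CPM, and 701 were higher after thinning; the settings for lower genes of the range were chosen after seeing the data.

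Single genes reversed in 3 settings, as log2 ratios with 5 CPM added. Under the stricter rule, which removes collagen-rich cells, the dermal list median was 0.23, Crabp1 0.03, Ptn 1.05, Col1a1 0.26, Col1a2 0.01, Vcam1 0.28 and Klf4 0.03. With at most 10 collagen UMIs, chosen after seeing the data, the dermal list was 0.21, Crabp1 0.27, Ptn 0.63, Col1a2 0.09 and Klf4 0.23. In cells with no G2M UMI Ccl21a was 0.21, Gja4 1.79, Tbx1 0.23, Meox2 -0.26, Bcl6b 0.03, Podxl 2.02, Cdc6 -1.36, Fos -0.72, Hoxa7 -0.61, Egln3 -0.26, Tspan12 0.16 and Cat -0.26; the cause was not tested.

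The endothelial share was 0.923% of control and 1.20% of mutant cells under the stricter rule, and 0.701% and 1.09% after thinning. The lymphatic share, higher in the mutant cells as reported, was lower there with at least 2 Prox1 UMIs, 14.1% against 15.5%, and after thinning, 16.1% against 17.4%. Cycling shares in control and mutant cells were 69.6% and 82.5% at 1 G2M UMI, 39.1% and 45.3% at 4, and 72.5% and 78.2% unthinned; at 2000 UMIs the mutant share was 55.6%. Arterial shares were 40.2% and 38.5% at 1 gene, 9.62% in the mutant at 3 and 34.2% in the control unthinned. Venous shares were 59.8% and 69.2% at 1 gene, 5.61% and 6.73% at 3, and 60.4% and 60.2% unthinned. Mutant Ptch1 was 34.3 CPM with at most 10 collagen UMIs and 60.8 CPM after thinning. Control Gli1 was 0 under the stricter rule, with at most 10 or no collagen UMIs and after thinning, and mutant Gli1 1.43 CPM with no collagen UMI. Mutant Hhip was 0 under the stricter rule and with no collagen UMI, 3.72 CPM without doublets, 2.86 CPM with at most 10 collagen UMIs and 2.43 CPM after thinning. The eYFP level was 0 in the control after thinning and 0 in the mutant with no collagen UMI. In endothelial cells with no collagen UMI the log2 ratio minus the dermal one was -5.38 for Ptch1 and -3.95 for Igfbp7.

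No paired analysis was possible because each group had 1 library, and leaving out a replicate was not possible for the same reason. Genes with under about 20 UMIs have wide intervals, and shares rest on 142 cells per library.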
